A study of Mus musculus with 6 samples.

Results

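The genes described here encode 6 matrix metalloproteinases (MMPs; Mmp2, Mmp3, Mmp11, Mmp14, Mmp19 and Mmp23), 3 tissue inhibitors of metalloproteinases (TIMPs; Timp1, Timp2 and Timp3) and the serine protease Htra3. They were chosen by symbol, and each of the 10 symbols matched 1 row of the 54100 genes in the deposited count table. RNA was measured in FAPs (fibro-adipogenic progenitors), Pdgfra-bearing mesenchymal cells that lie between the fibres of skeletal muscle. The cells came from the plantaris, a calf muscle, of C57BL/6 mice whose muscle had been overloaded or had undergone sham treatment, with 3 libraries in each group and 1000 sorted Pdgfra+ cells per tube. How and for how long the load was applied, the age and sex of the mice, and whether each library came from a separate animal are not stated in the labels. The p-values therefore measure only the spread between libraries, part of which may be technical. The comparison sets FAPs of loaded muscle against those of sham muscle.

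MMPs are zinc-dependent enzymes that cut collagens, proteoglycans and other proteins outside the cell, and most are made as inactive precursors. TIMPs bind the active site of MMPs and block it, and TIMP2 has a further role: it tethers the precursor of MMP2 to the membrane-bound enzyme MMP14, which then activates it. HTRA3 is a secreted serine protease of the HtrA family that cuts matrix proteins such as decorin and is not an MMP. In muscle, fibroblast-like cells are a main source of these enzymes and inhibitors, which together set how fast the connective tissue around the fibres is remodelled.

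Sham libraries held between 500402 and 754456 counts, and overloaded libraries between 850857 and 1124210. Levels are given as CPM, counts scaled to a total of 1e6 over the tested genes with edgeR's TMM factors. Within each group every pair of libraries differed by more than counting noise (chi-square per degree of freedom between 4.17 and 7.97), so each was kept as a replicate. Markers of FAPs, 10 genes in all, summed to between 58356 and 75691 CPM in sham and between 72919 and 85106 CPM in overloaded libraries, and none of the 10 was at 0. The sum mixes opposite moves. Col3a1 had 10580, 7893 and 14392 counts in sham against 49532, 31781 and 35722 in overloaded libraries, and Col1a1 also rose. Dcn went from 14737, 8899 and 15884 counts to 8654, 6870 and 6643. Pi16 had 122, 79 and 110 against 62, 36 and 41 counts. Cd55 had 109, 121 and 135 against 69, 28 and 24. Counts of Pdgfra, Ly6a, Cd34, Lum and Gsn overlapped before scaling, but the overloaded libraries were deeper. Scaled to CPM, Pdgfra, Cd34, Lum and Gsn were lower in every overloaded library than in any sham library, as were Dcn, Pi16 and Cd55. For Pdgfra the margin was narrow. Ly6a overlapped in CPM too (log2 fold change 0.13, edgeR adjusted p = 0.668). Of the 8 leukocyte markers, Adgre1, Lyz2 and C1qa had 0 counts in every library. Ptprc had 2, 4 and 5 counts in sham against 0, 8 and 1 in overloaded libraries. Csf1r had 4, 3 and 5 against 2, 1 and 3, and Cd68 had 4, 3 and 2 against 0, 3 and 1. Together the 8 summed to between 15.8 and 20.7 CPM in sham and between 1.92 and 16.3 CPM in overloaded libraries. Markers of endothelial cells, 6 genes of which none was at 0 throughout, summed to between 122 and 216 CPM in sham and between 33.5 and 71.5 CPM in overloaded libraries. Tek carried that difference, with 89, 51 and 93 counts in sham against 33, 19 and 22 in overloaded libraries, and the other 5 markers (Pecam1, Cdh5, Kdr, Flt1 and Emcn) together had 62, 8 and 6 against 33, 38 and 7 counts, which overlapped. The 5 tenocyte markers summed to between 110.3 and 143 CPM in sham and between 3365 and 4310 CPM in overloaded libraries. Nearly all of that sum was Thbs4, with 4331, 2651 and 3678 counts in overloaded libraries 1 to 3, and the other 4 (Tnmd, Scx, Mkx and Fmod) together had 20, 14 and 19 counts in sham against 31, 32 and 48 in overloaded libraries, or 25.6 to 29.0 against 29.8 to 55.5 CPM. Of these, Fmod had 10, 13 and 14 against 14, 23 and 32 counts, Scx 2, 1 and 1 against 9, 0 and 12, Tnmd 4, 0 and 4 against 6, 7 and 4, and Mkx 4, 0 and 0 against 2, 2 and 0. The marker sums of pericytes and smooth muscle (99.6 to 175 against 98.3 to 142 CPM), satellite cells (85.0 to 131 against 119 to 149 CPM) and Schwann cells (1.35 to 8.30 against 0 to 3.76 CPM) overlapped between sham and overloaded libraries. Those of myofibres were 35.8 to 56.0 against 21.2 to 30.1 CPM. Most of that sum was Tnnt3, with 14, 18 and 32 counts in sham against 20, 21 and 24 in overloaded libraries, which overlapped. Acta1, Ckm, Myh4 and Myh1 had at most 6 counts each in any library. The satellite cell sum was mostly 2 genes that moved in opposite directions. Vcam1 had 42, 20 and 40 counts in sham against 96, 99 and 109 in overloaded libraries (log2 fold change 1.12, edgeR adjusted p = 0.00137). Chrd had 39, 21 and 55 against 26, 14 and 3 counts, and Pax7, Myf5 and Myod1 had at most 6 in any library. What part such cells have in the results that follow was not tested.

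In overloaded FAPs Timp1 rose and Timp2, Timp3, Htra3 and Mmp2 fell. Of the 10 genes, 8 had enough counts to test, and of these 1 rose, 4 fell and 3 (Mmp3, Mmp14 and Mmp19) were not called at an adjusted p under 0.05 (Benjamini-Hochberg, quasi-likelihood test of edgeR). Across all 7207 genes tested 29.3% were called, 15% higher and 14.3% lower. The CPM ranges of the groups were apart for 7 of these 8, as they were for 41.5% of all tested genes. The median log2 fold change of the 8 was -0.18 and that of all tested genes -0.02. With 1 gene called higher and 4 lower, the called genes did not share a direction. Timp1 and Mmp3 passed the count filter through their overloaded libraries and would not have passed on their sham libraries alone, so that they could be tested already reflects their level there. The other 6 passed on the libraries of each group alone.

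**Figure D1:**
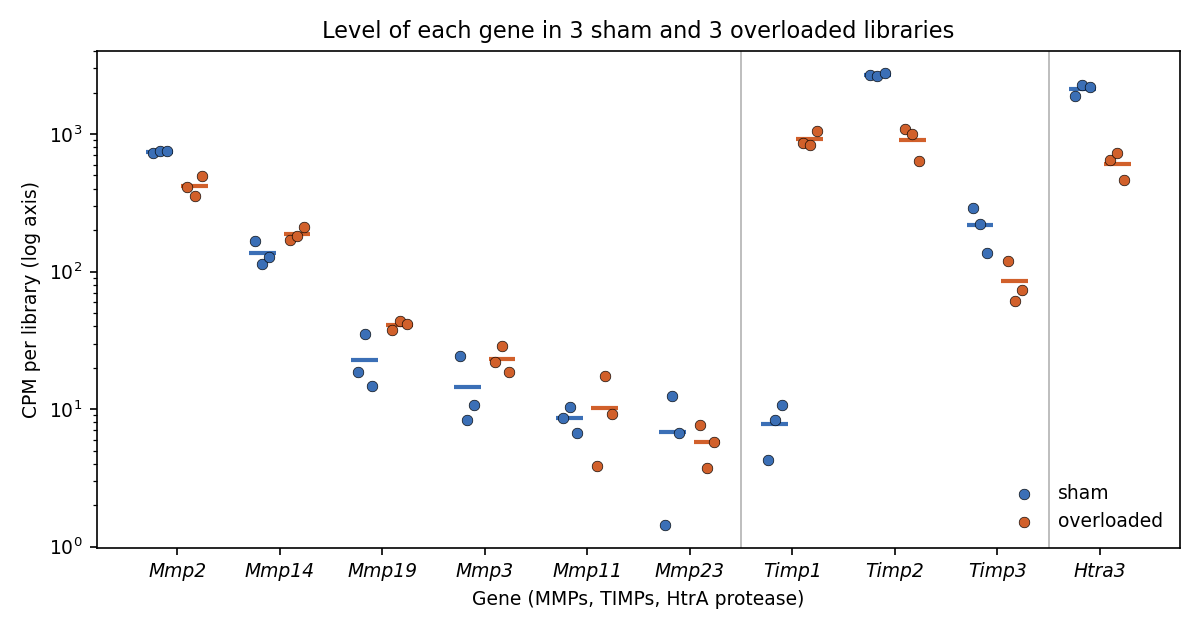
Level of each of the 10 genes in CPM (log axis) in every library, with points for libraries and bars for the group mean (n = 3 each). Timp1 stands between 4.30 and 10.8 CPM in sham and between 834 and 1048 CPM in overloaded libraries, while Timp2, Timp3, Htra3 and Mmp2 are lower in all 3 overloaded libraries than in any sham library.

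The promoters of Timp1, Timp2 and Htra3 are shown because these genes had the largest changes of the 8 tested, and that of Mmp3 because it holds the AP-1 motif by which MMP promoters are best known. Promoter windows of 250 bases before to 50 after the start were taken from RefSeq (GRCm38.p6), which matched 8 of the 10 genes (Mmp2 and Mmp19 were not matched). Capitals mark matches, on either strand, to the AP-1 motif TGANTCA, the AP-1 variant TGAGTAA, the TEAD motif GGAATG, the TATA motif TATAAA and the GC box GGGCGG. No base lay in more than 1 match. Each sequence is on the strand of its gene.
Timp1 (chrX:20869916-20870215, plus strand): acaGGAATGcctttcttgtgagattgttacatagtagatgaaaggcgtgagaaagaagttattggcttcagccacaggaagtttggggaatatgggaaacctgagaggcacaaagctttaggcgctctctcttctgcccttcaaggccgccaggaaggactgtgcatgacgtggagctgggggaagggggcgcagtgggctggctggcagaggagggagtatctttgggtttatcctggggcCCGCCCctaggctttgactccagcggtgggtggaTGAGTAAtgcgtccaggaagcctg
Mmp3 (chr9:7445572-7445871, plus strand): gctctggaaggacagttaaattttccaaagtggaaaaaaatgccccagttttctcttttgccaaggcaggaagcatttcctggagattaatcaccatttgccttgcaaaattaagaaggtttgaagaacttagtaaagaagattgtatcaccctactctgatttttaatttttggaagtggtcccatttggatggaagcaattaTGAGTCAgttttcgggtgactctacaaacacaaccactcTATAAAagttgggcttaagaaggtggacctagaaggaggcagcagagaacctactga
Timp2 (chr11:118355362-118355661, minus strand): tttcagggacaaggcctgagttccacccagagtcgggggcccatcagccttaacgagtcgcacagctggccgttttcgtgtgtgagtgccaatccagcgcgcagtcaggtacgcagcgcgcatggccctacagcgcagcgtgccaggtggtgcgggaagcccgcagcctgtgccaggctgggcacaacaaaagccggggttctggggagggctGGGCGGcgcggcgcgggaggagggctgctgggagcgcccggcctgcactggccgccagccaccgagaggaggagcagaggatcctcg
Htra3 (chr5:35679731-35680030, minus strand): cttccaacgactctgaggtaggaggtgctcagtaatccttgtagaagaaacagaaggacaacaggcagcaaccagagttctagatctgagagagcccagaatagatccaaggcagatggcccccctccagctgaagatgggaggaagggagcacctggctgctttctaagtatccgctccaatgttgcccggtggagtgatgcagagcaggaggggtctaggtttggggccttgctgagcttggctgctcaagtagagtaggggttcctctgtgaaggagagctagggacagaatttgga

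In the Timp1 window, TGAGTAA began at base 27 after the start, GGAATG at 247 bases before it and a GC box on the opposite strand at 8 bases before it. The variant TGAGTAA was present in 2.68% of the 32851 promoter windows of the same length, and GGAATG in 14.7%. Mmp3 held TGAGTCA at 46 bases and TATAAA at 7 bases before the start, matches found in 7.81% and 13.6% of windows. Timp2 held a GC box at 37 bases before the start, as did 35.7% of windows somewhere in their length, and the Htra3 window held none of the 5 motifs. Among the other matched genes, Timp3, Mmp11, Mmp14 and 1 of the 2 Mmp23 windows held GC boxes and none of the other 4 motifs. These matches describe letters and do not show that a factor binds there.

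Among the inhibitors, Timp1 encodes the soluble TIMP known for its induction by growth factors and inflammatory cytokines. It lies on chromosome X (20870166 to 20874735, plus strand, GRCm38) within an intron of Syn1, which runs on the opposite strand. Syn1 had 0 to 4 counts per library, and the exons of the genes do not overlap. Timp1 had 3, 4 and 8 counts in sham libraries 1 to 3, or 4.30, 8.30 and 10.8 CPM. In overloaded libraries 1 to 3 it had 899, 665 and 906 counts, or 865, 834 and 1048 CPM. Every overloaded library thus lay far above every sham library. The log2 fold change was 6.85 with a standard error (SE) of 0.31 (edgeR adjusted p = 1.46e-17), the rank 5 from the top among 7207 tested genes. In RNA from a pool of cells, more or fewer cells with a transcript and more or less transcript per cell cannot be told apart.

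Timp2, the inhibitor that also takes part in the activation of MMP2, lies on chromosome 11 (118301069 to 118355740, minus strand). It stood at 2698, 2624 and 2765 CPM in sham libraries 1 to 3 and at 1092, 1008 and 636 CPM in overloaded libraries 1 to 3. The groups did not overlap, and overloaded library 3 was the lowest. Timp2 fell by 1.56 on the log2 scale (edgeR adjusted p = 1.11e-06, SE 0.21), to a fold of 0.338 of sham. Timp3 encodes the inhibitor that binds to the matrix and also blocks ADAM and ADAMTS proteases (chromosome 10, 86300372 to 86349506, plus strand). Its levels were 292, 222 and 137 CPM in sham and 120.2, 61.5 and 74.0 CPM in overloaded libraries. Its sham libraries were spread more widely than those of Timp2, and the lowest of them lay close to the highest overloaded library. Timp3 fell by 1.33 on the log2 scale (edgeR adjusted p = 0.000656, SE 0.28).

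Timp3 shares 1733 exonic bases with Syn3 on the opposite strand, which had 0 to 4 counts per library. Endothelial cells also make Timp3. Of their markers Tek was lower in all 3 overloaded libraries and the summed counts of the other 5 overlapped between the groups, as given above, and their part in this result was not tested. Reads of olfactory and vomeronasal receptors, genes of sensory neurons, amounted to 1445, 1819 and 781 CPM of the total in sham and 308, 1092 and 232 CPM in overloaded libraries. With that share as a covariate the log2 fold change of Timp3 was -1.38 and no longer passed the test (edgeR adjusted p = 0.0591). Over all 15 alternative settings its log2 fold change ranged from -1.64 to -1.01 and its adjusted p from 2.87e-05 to 0.0591. The fourth inhibitor of the family, Timp4, had 5 counts in sham against 5 in overloaded libraries and was not tested. Reck, which encodes a membrane-anchored inhibitor of MMPs (chromosome 4, 43875530 to 43944806), was at 30.1, 35.3 and 37.7 CPM in sham against 11.5, 15.05 and 9.25 CPM in overloaded libraries. It fell by 1.52 on the log2 scale (edgeR adjusted p = 0.00424, SE 0.40), and with the receptor share as a covariate its log2 fold change was -1.30 and not called (edgeR adjusted p = 0.134, range over 14 alternatives 0.00304 to 0.134). Reck passed the count filter through its sham libraries, and only 1 of its 3 overloaded libraries reached the filter's level, so that it could be tested already reflects its level in sham.

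The makeup of the TIMP reads differed between the groups. Timp1 held 0.143%, 0.291% and 0.369% of the reads of the 4 TIMP genes in sham libraries 1 to 3, with 95% Wilson intervals of 0.0487% to 0.420%, 0.113% to 0.745% and 0.187% to 0.727%. In overloaded libraries 1 to 3 it held 41.6%, 43.8% and 59.6%, with intervals of 39.5% to 43.6%, 41.3% to 46.3% and 57.1% to 62.0%. The intervals cover counting error only. Timp2 went the other way, from 92.2% ± 2.49 (SD, n = 3) of TIMP reads in sham to 47.2% ± 9.54 in overloaded libraries, and Timp3 held 7.41% ± 2.53 and 4.41% ± 1.29. The summed level of the 4 genes was 2923 ± 73.3 CPM in sham and 1915 ± 161 CPM under overload, so in CPM the gain of Timp1 was smaller than the summed loss of Timp2 and Timp3. These sums and shares are of reads, which in a library tagged at the 3′ end need not follow transcript length, and they are given as a description.

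**Figure D2:**
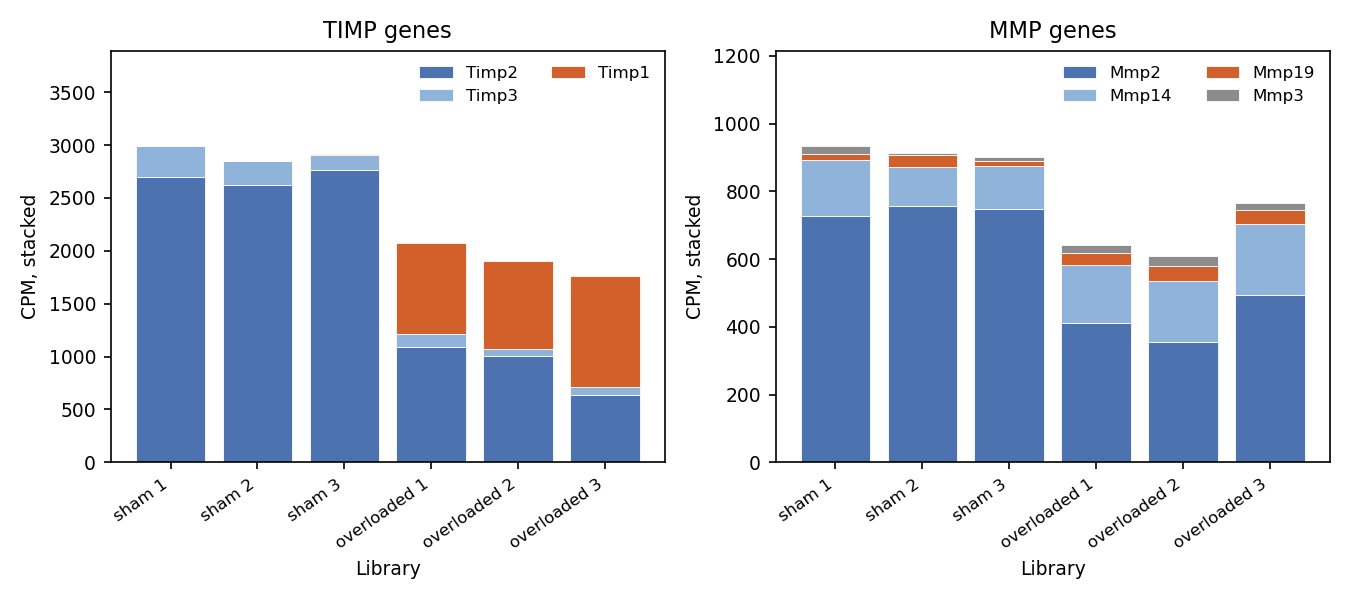
Stacked CPM of 3 TIMP genes (left) and of the 4 tested MMP genes (right) in each library, with 1 bar per library. Timp1 is barely visible in the sham bars and makes up 41.6% to 59.6% of the TIMP reads in overloaded libraries, while the Mmp2 part of the MMP bars is smaller there.

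Among the proteases, Mmp2 encodes the secreted gelatinase that is made widely by fibroblasts (chromosome 8, 92827291 to 92853420, plus strand). It was at 726, 757 and 748 CPM in sham libraries 1 to 3 and at 411, 355 and 493 CPM in overloaded libraries 1 to 3. The sham libraries had an SD of 16.0 CPM and all lay above the overloaded ones. Mmp2 fell by 0.83 on the log2 scale (edgeR adjusted p = 0.00187, SE 0.20). Mmp14, the membrane-type enzyme that activates the precursor of MMP2 and itself cuts collagen (chromosome 14, 54431612 to 54445364, plus strand), was at 166, 114 and 128 CPM in sham against 171, 181 and 212 CPM in overloaded libraries. All 3 overloaded libraries were above the sham libraries, the closest by a narrow margin, but the difference missed the threshold (log2 fold change 0.46, edgeR adjusted p = 0.128, SE 0.22).

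Mmp19, a secreted MMP that cuts basement membrane proteins (chromosome 10, 128790910 to 128800824, plus strand), was at 18.6, 35.3 and 14.8 CPM in sham against 37.5, 43.9 and 41.6 CPM in overloaded libraries. Sham library 2 lay close to the overloaded libraries, and the other sham libraries were well below them. The log2 fold change was 0.89 (SE 0.36) and missed the threshold (edgeR adjusted p = 0.0622). It was 1.29 and passed without sham replicate 2 (edgeR adjusted p = 0.0213), and it also passed with limma-voom (1.002, limma adjusted p = 0.0398) and after thinning each library to the same total of 500402 counts, which left 5965 genes tested (1.11, edgeR adjusted p = 0.0386), with a range over 14 alternatives from 0.0213 to 0.254. Mmp19 shares 1001 exonic bases with Gm47093 and Tmem198b on the opposite strand, which had at most 5 counts in any library. Mmp3, stromelysin-1, which cuts proteoglycans and activates other MMPs (chromosome 9, 7445822 to 7455975, plus strand), was at 24.3, 8.30 and 10.8 CPM in sham against 22.1, 28.8 and 18.5 CPM in overloaded libraries. Its groups overlapped, since sham library 1 exceeded 2 of the 3 overloaded libraries, and it was not called (log2 fold change 0.63, edgeR adjusted p = 0.309, SE 0.44). Without sham replicate 1 its log2 fold change was 1.27 (edgeR adjusted p = 0.0763).

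Mmp11 and Mmp23 had too few counts to test. Mmp11, stromelysin-3, is an MMP of stromal cells that is activated inside the cell by furin (chromosome 10, 75923222 to 75936496, minus strand). It had 6, 5 and 5 counts in sham against 4, 14 and 8 in overloaded libraries, with overlapping levels of 8.56 ± 1.82 and 10.2 ± 6.91 CPM. It shares 155 exonic bases with Chchd10 on the opposite strand, which had at most 2 counts in any library. Mmp23 encodes a membrane-anchored MMP without the usual haemopexin domain (chromosome 4, 155650655 to 155653384, minus strand). It had 1, 6 and 5 counts in sham against 8, 3 and 5 in overloaded libraries, with overlapping levels of 6.87 ± 5.51 and 5.75 ± 1.97 CPM.

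The reads of the MMP genes were thus spread differently over the genes in the groups. Mmp2 held 77.1% ± 2.90 (SD, n = 3) of the reads of all 23 MMP genes in sham and 59.2% ± 4.75 in overloaded libraries. Mmp14 held 14.1% ± 2.74 and 26.6% ± 0.849, and Mmp19 held 2.36% ± 1.07 and 5.84% ± 0.715. The summed level of the 23 genes was 965 ± 27.5 CPM in sham and 707 ± 73.4 CPM under overload. For the trio of MMP2 activation, there were 16.2, 23.0 and 21.6 Timp2 reads for each Mmp14 read in sham libraries 1 to 3 against 6.38, 5.58 and 3.005 in the overloaded libraries in the same order. The Mmp2 reads per Mmp14 read were 4.37, 6.64 and 5.85 in sham and 2.40, 1.97 and 2.33 in overloaded libraries. In both ratios every overloaded library was below every sham library. The ratios themselves were not tested. The tests of Mmp2, Timp2 and Mmp14 given above bear on them, and of these Mmp14 was not called.

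The rest of the MMP family was scarce in these cells. The list of all mouse MMPs, TIMPs, Reck and HtrA proteases held 32 genes, of which 10 were tested, 1 rose and 6 fell, where of all 7207 tested genes 15% were called higher and 14.3% lower. The median log2 fold change of the 10 was -1.07, against -0.02 for all tested genes, and 3 of them (Timp1, Mmp3 and Reck) passed the count filter through 1 group, so nothing is read from these counts about the list. Besides the genes chosen for description, only Reck and Htra1 of 22 could be tested, and Htra1, which passed the filter in each group, fell, as did Reck, with the limit given above. Mmp1b, Mmp7, Mmp8, Mmp9 and Mmp24 had 0 counts in every library, and 3 counts, the limit that a count of 0 allows, corresponded to between 2.89 and 6.22 CPM per library. Mmp9 and Mmp8 are gelatinase B and the collagenase of neutrophils, and of the 4 neutrophil markers S100a9 and Csf3r were at 0 throughout, S100a8 had 1 count in sham library 2 and Ly6g had 2 and 1 counts in overloaded libraries 1 and 3. Mmp13, the main collagenase of rodents, had 0 counts in sham against 2 in overloaded libraries, Mmp12 had 2 and 2, and Mmp10 had 1 and 3. Mmp16, another membrane-type MMP, had 39 counts in sham against 21 in overloaded libraries, at 22.9, 29.0 and 12.1 against 6.73, 11.3 and 5.78 CPM, groups that did not overlap, but was below the count filter.

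Htra3 (chromosome 5, 35652023 to 35679782, minus strand) was at 1901, 2261 and 2213 CPM in sham libraries 1 to 3 and at 645, 725 and 460.4 CPM in overloaded libraries 1 to 3. The groups were far apart, and the overloaded libraries stood at a fold of 0.287 of sham. Htra3 fell by 1.80 on the log2 scale (edgeR adjusted p = 7.75e-08, SE 0.21), the rank 189 from the bottom among 7207 tested genes. Htra1, a secreted protease of the same family (chromosome 7, 130936111 to 130985660, plus strand, inside the span of Fgfr2 without exon overlap), was at 90.2, 87.1 and 113 CPM in sham against 35.6, 38.9 and 42.8 CPM in overloaded libraries. It fell by 1.31 on the log2 scale (edgeR adjusted p = 0.000371, SE 0.27). Htra2, the mitochondrial member, had 3 and 2 counts and Htra4 had 7 and 12, too few to test. Both HtrA genes that could be tested therefore fell.

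**Figure D3:**
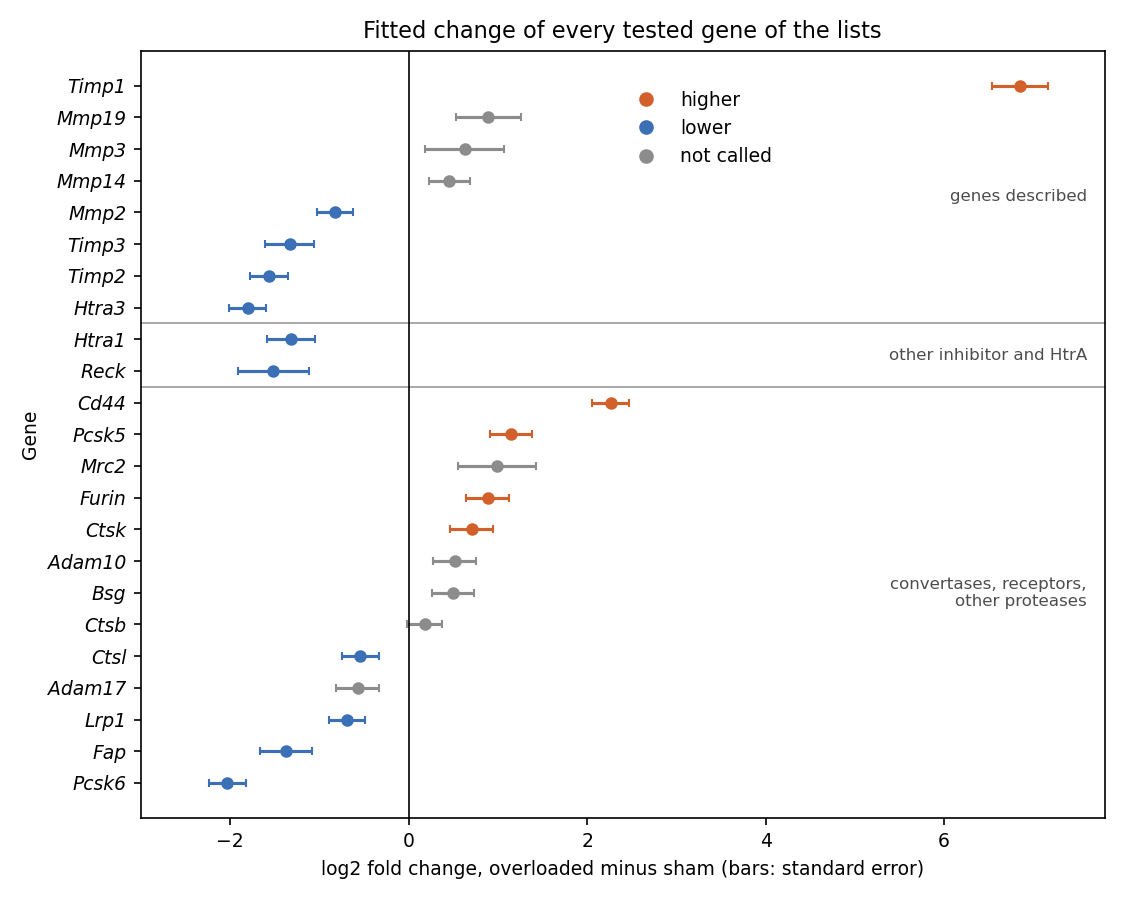
Log2 fold change (overloaded minus sham) with its standard error for the genes of the lists that could be tested, coloured by whether edgeR's adjusted p was under 0.05. Timp1 stands alone at 6.85, the HtrA genes, Reck, Timp2, Timp3 and Mmp2 lie below 0, and Mmp3, Mmp14 and Mmp19 lie above 0 without a call.

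Genes that act on MMPs or beside them moved in both directions. Of 17 such genes 13 were tested, 4 rose, 4 fell and 5 (Bsg, Mrc2, Ctsb, Adam10 and Adam17) were not called, with a median log2 fold change of 0.50. Across all tested genes 29.3% were called, and the median was -0.02. Mrc2 passed the count filter through its overloaded libraries and the other 12 on each group alone. Among the proprotein convertases, which remove the propeptide of membrane-type MMPs and of MMP11, Furin (chromosome 7, 80388585 to 80405436) was at 77.3, 95.4 and 90.2 CPM in sham against 140.4, 192 and 153 CPM in overloaded libraries. It rose by a log2 fold change of 0.88 (edgeR adjusted p = 0.0049, SE 0.24). Pcsk5 rose from 146 ± 27.1 to 327 ± 103 CPM (log2 fold change 1.15, edgeR adjusted p = 0.000373, SE 0.23). Pcsk6, another convertase, fell from 1228 ± 141 to 300.2 ± 69.8 CPM (log2 fold change -2.03, edgeR adjusted p = 1.19e-08, SE 0.21). The convertases therefore did not share a direction. With the receptor share as a covariate Pcsk5 had a log2 fold change of 0.71 and was not called (edgeR adjusted p = 0.132, the highest over 15 alternatives, of which 14 called it).

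Cd44, a hyaluronan receptor that can hold MMPs at the cell surface, was at 203, 239 and 241 CPM in sham against 1046, 958 and 1271 CPM in overloaded libraries (log2 fold change 2.26, edgeR adjusted p = 1.09e-09, SE 0.21). Lrp1, an endocytic receptor that clears MMPs and their complexes with TIMPs, fell from 492 ± 42.3 to 305 ± 23.8 CPM (log2 fold change -0.69, edgeR adjusted p = 0.00878, SE 0.20), and 12 of 15 alternatives called it. Fap, a serine protease of activated fibroblasts, fell from 94.6 ± 19.6 to 36.1 ± 11.97 CPM (log2 fold change -1.38, edgeR adjusted p = 0.000516). The collagen-cutting cathepsin gene Ctsk rose from 102 ± 26.5 to 164 ± 19.0 CPM (log2 fold change 0.71, edgeR adjusted p = 0.0257), called in 11 of 15 alternatives. Ctsl, a lysosomal cathepsin, was called lower (623 ± 102 and 426 ± 89.1 CPM, log2 fold change -0.54, edgeR adjusted p = 0.0462), but its groups overlapped and 8 of 15 alternatives did not call it. Exons of Furin overlap those of a predicted gene on the opposite strand, those of Pcsk6 one on the same strand, and those of Ctsl one on each strand. These predicted genes had 0 counts in every library. Ctsb shares 774 exonic bases with Fdft1, and Adam17 shares 311 with Iah1, both on the opposite strand. What the shared bases did to the counts was not tested.

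The genes whose pattern over the 6 libraries was most like that of Timp1 were Postn, Cxcl5 and Tnc, out of 6966 candidate genes. Likeness was the root mean square difference of log2(CPM + 1) after centring each gene on its mean, which was 0.226 for Postn, 0.543 for Cxcl5 and 0.662 for Tnc. Cxcl5 and Tnc, like Timp1, passed the count filter through their overloaded libraries. Postn, the gene of the matrix protein periostin, was at 14.3, 37.3 and 30.9 CPM in sham against 2733, 2127 and 2916 CPM in overloaded libraries. In each group its lowest library was also that of Timp1, but Postn was chosen for likeness over these same libraries. The sham order of Timp1 rests on 3, 4 and 8 counts. The genes most like Htra3 were Fam49a, Fcho2 and Agap1, with differences of 0.0999, 0.113 and 0.119. Fcho2, which encodes a protein of early clathrin-coated pits, was at 103, 120.3 and 118 CPM in sham against 35.6, 31.4 and 24.3 CPM in overloaded libraries. Fam49a was at 119 ± 16.0 and 35.7 ± 6.90 CPM, and Agap1 at 402 ± 60.2 and 129 ± 33.0 CPM.

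Timp1, Timp2, Htra3 and Mmp2 were called in each of the 15 alternative fits, which changed the scaling, the filter, the tool, the design or the libraries used. Their log2 fold changes there ranged from 6.57 to 7.31 for Timp1, from -1.68 to -1.34 for Timp2, from -1.92 to -1.56 for Htra3 and from -1.06 to -0.70 for Mmp2. Mmp14 was called in none of the 15, with a log2 fold change between 0.36 and 0.67 and an adjusted p by edgeR, DESeq2 or limma between 0.0508 and 0.491.

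**Figure D4:**
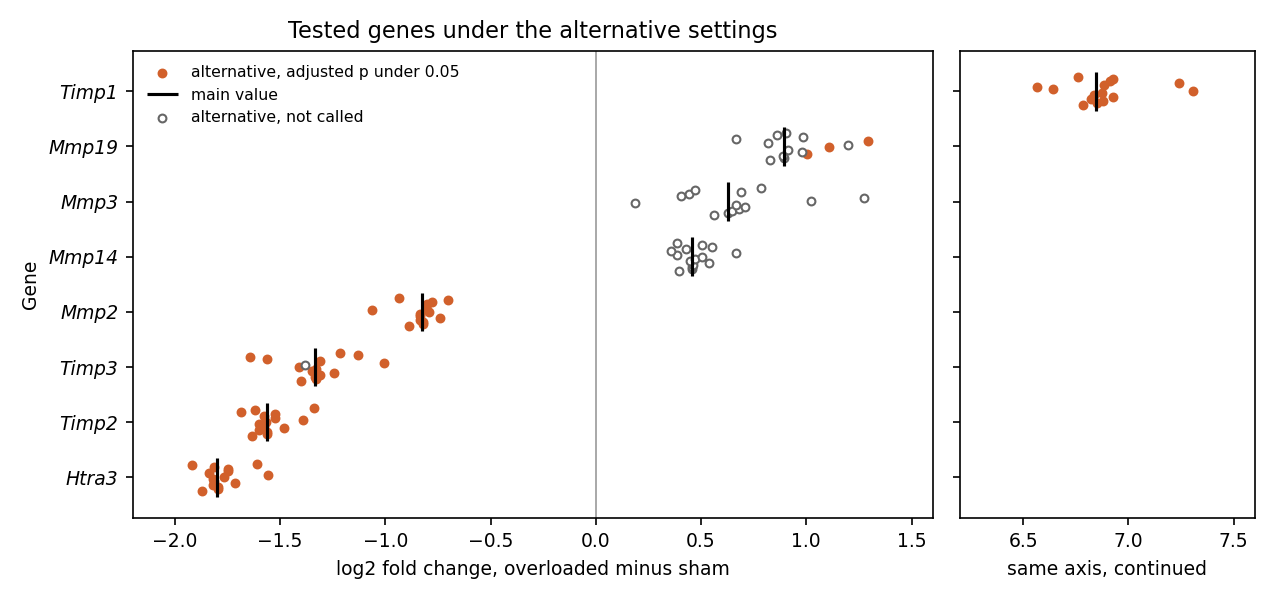
Log2 fold change (overloaded minus sham) of the 8 tested genes under each alternative setting (points) beside the main value (black line), filled where the adjusted p was under 0.05. No point crosses 0, Timp1 stays between 6.57 and 7.31, and the calls that differ between settings are those of Mmp19 and Timp3.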

How the data were processed

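Libraries followed a CEL-Seq2 type of protocol, which tags transcripts near their 3′ end, per the labels' protocols. The authors deposited raw read counts per gene as whole numbers, not normalised. Build GRCm38 and the programs Trim Galore (version 0.6.6), HISAT2 (version 2.2.1), featureCounts (version 2.0.1) and DESeq2 (version 1.28.1) are named in the notes, per the submitters' processing notes. Annotation release, strand setting and collapsing of molecular identifiers are not stated there, so reads are not known to be independent molecules and antisense overlap cannot be resolved.

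Genes with a minimum count of 10 and minimum total of 15 by filterByExpr were tested with edgeR 4.0.16 in R 4.3.3 (robust quasi-likelihood F test, TMM scaling, no covariate), adjusted over 7207 genes. The biological coefficient of variation was 21.2%. SE was the log2 fold change over the square root of F. The script was tested on simulated data. Alternatives used limma 3.58.1 and DESeq2 1.42.0. Positions came from GENCODE M21, which held all 54100 identifiers. The genes, lists, tests and alternatives were chosen with earlier results of these data known. The 10 genes were named whatever their values, with every called gene of the other lists and the 3 genes most like Timp1 and Htra3 of at least 10 CPM. The smallest totals, in sham, set the depth limit. Other genes or counts named, such as the untested MMPs, Bsg, Mrc2 and the overlapping genes, were named after their values were seen.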

Additional observations from a re-analysis of the deposited data

How the results depend on the processing

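None of the 29 tested genes named changed direction over the alternatives that gave a value, 15 for each gene but Mmp3, Mmp19, Reck and Mrc2, which had 14. Mrc2 was called higher in 2, with the receptor share as a covariate and without overloaded replicate 3 (log2 fold change 1.25, edgeR adjusted p = 0.0431), Adam17 was called lower in 2, with library size only and with thinning, and Bsg, Ctsb and Adam10 in none. Genes below the count filter have no such values. Timp1, Timp2, Htra3, Mmp2 and Htra1 were called in all 15, and Mmp14 in none of 15 and Mmp3 in none of 14. Mmp3, Mmp19, Reck and Mrc2 had too few counts for a value at a minimum count of 30. The count of the 10 genes called higher was 1, and 2 with limma-voom and with thinning, and 1 to 2 when a library was left out, the added gene being Mmp19. The same held for the list of 32, from 1 to 2. In the list of 17 genes around MMPs the count called lower was 4. It was 2 with no count filter and with the receptor share as a covariate, 3 with DESeq2, and 5 with library size only and with thinning. When a library was left out it was 2 to 4, with the lowest without sham replicate 3. With the receptor share as a covariate 488 genes were higher and 381 lower, against 1084 and 1027, and the cause was not tested. With the replicate number as a block, 1 of the 10 genes was higher and 4 lower, and 1043 and 993 of all genes. The labels do not say that the numbers pair libraries. Same-numbered libraries correlated at 0.0161, 0.0143 and 0.022 in their deviations from the group means. These values were the highest for each library but too low to show pairing. Without the count filter the median of all genes was -0.33 and with library size only -0.09. Sham depth limits what can be seen of Mmp11, Mmp23 and the scarce MMPs.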
